A study of Mus musculus with 12 samples.

Results

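The lysosomal genes described here encode enzymes and other proteins of the lysosomal lumen, proteins of the lysosomal membrane, subunits of the proton pump that acidifies the lysosome, and the transcription factors TFEB and MITF. The rule that picked them lists gene names, without cathepsins, and uses no measured value, but it was drawn up with earlier results of these data known. Of the 43 named genes, 42 were measured, among 18193 genes in all: 22 luminal proteins, 6 membrane proteins, 12 of 13 proteins of the proton pump and both transcription factors. *Atp6v0c*, of the membrane ring of the pump, is not analysed here.

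Expression was measured with 12 Affymetrix mouse arrays in cultured peritoneal macrophages (PMs), cells washed from the peritoneal cavity of mice and kept by adhesion to a dish. The cells were given lipofectamine (a lipid transfection reagent, read here as reagent without oligonucleotide), a scramble control oligonucleotide or antagomir-21 (an oligonucleotide that binds and blocks miR-21). All groups were then exposed to exosomes, the small vesicles that cells release, from sensory neurons carrying either a GFP reporter or extra miR-21, so that no group was free of neuronal exosomes. This gave 6 groups of 2 arrays, and the labels do not give the age, sex or strain of the mice. The study's methods name C57BL/6 mice of both sexes for the work as a whole. They also state independently collected biological triplicates, whereas 2 arrays per group are analysed here and the labels do not tie arrays to cultures. The p-values measure the spread between these arrays, which may be technical. All values are deposited log2 signals, on which a difference of 1 stands for 2-fold, and levels of different genes cannot be set against each other since each probe set binds with its own strength.

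Lysosomes are acidic vesicles in which macrophages break down what they engulf. Soluble hydrolases reach them mostly through a mannose 6-phosphate tag, the membrane is coated by heavily glycosylated proteins of the LAMP family, and the vacuolar H+-ATPase (V-ATPase) pumps protons inward, with a rotating cytosolic V1 part that splits ATP and a V0 part in the membrane that carries the protons. TFEB, a helix-loop-helix factor that mTORC1 holds in the cytoplasm, switches on many lysosomal genes through an E-box element in their promoters, and its relative MITF binds similar elements.

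The sequence that the antagomir blocks is shown because it defines the treatment. The mature mouse miRNA from RefSeq (build GRCm38.p6, chr11:86584120-86584141, minus strand) is written 5′ to 3′ with the seed, bases 2 to 8, in capitals.
mmu-miR-21a-5p: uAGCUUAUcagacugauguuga

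Promoters of the lysosomal genes were searched for exact matches to letters of the TFEB element, and variant forms were not searched. Most of these promoters held no match in the window used, though the share with a match was higher than among all promoters. TFEB is known for switching on lysosomal genes, so a higher share is no independent result. RefSeq promoters (GRCm38.p6, 250 bases before to 50 after the start site) were found for 36 of the 42 measured genes. The letters TCACGTGA, called the full element here, read the same on both strands. They were present in 5 of the 36 promoters (13.9%) and in 304 of 27025 promoters of all genes (1.12%). The core CACGTG, which the full element contains, was present in 13 of 36 (36.1%) and in 2187 of all 27025 (8.09%). The 5 genes with the full element were *Gla*, *Mcoln1*, *Atp6v1a*, *Atp6v0d1* and *Atp6v0e*. *Gla* held it at 2 places and *Lamp1* held the core at 4 places between 61 and 15 bases before its start. Neither *Tfeb* nor *Mitf* held the letters in this window. Stretches before the start site are shown 5′ to 3′ on the strand of the gene, with the full element in capitals for the first 3 genes and the core in capitals for *Lamp1*.
Gla, chrX:134601177-134601249, minus strand: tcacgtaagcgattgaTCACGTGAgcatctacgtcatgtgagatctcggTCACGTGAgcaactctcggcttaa
Mcoln1, chr8:3500457-3500496, plus strand: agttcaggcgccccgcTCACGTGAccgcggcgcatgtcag
Atp6v1a, chr16:44139368-44139407, minus strand: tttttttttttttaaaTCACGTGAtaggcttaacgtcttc
Lamp1, chr8:13159090-13159160, plus strand: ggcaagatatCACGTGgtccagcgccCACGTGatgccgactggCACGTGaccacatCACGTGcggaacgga
A match to these letters is a description of the window and not a measured binding site.

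The arrays differed in ways that touch every result. Their medians ran from 7.92 to 8.58 and the SD of their log2 values from 2.04 to 2.48. The median of the 42 lysosomal genes, centred by gene, was 0.64 and 0.65 in the antagomir-21 arrays with GFP exosomes, whose SDs were 2.47 and 2.48, and −0.63 in the first scramble array with miR-21 exosomes, whose SD was 2.04. It did not follow the SD throughout. With antagomir-21 and miR-21 exosomes it was 0.84 (SD 2.46) and −0.85 (SD 2.16), the highest and lowest of all. In the first scramble array with GFP exosomes it was −0.67 (SD 2.24). The part of this width in the differences below was not tested beyond the other scalings given there. Arrays of the same group correlated no better (mean r = 0.591 across genes) than arrays of different groups (mean r = 0.602). All 7 macrophage markers were measured and none was at 0 in any array; their summed level, as log2, was 16.95 and 17.92 with lipofectamine, 17.60 and 17.89 with scramble, and 18.37 and 18.50 with antagomir-21 under GFP exosomes. Under miR-21 exosomes it was 18.41 and 17.38, 17.25 and 18.44, and 18.66 and 16.88 in that order. The macrophage sum was higher in both antagomir-21 arrays than in both scramble arrays with GFP exosomes, but such a sum follows its brightest genes. *Lyz2* (17.81 and 17.82 against 15.81 and 17.25), *Adgre1*, *Itgam* and *Mertk* were higher in both antagomir-21 arrays there. *Csf1r* (16.45 and 16.83 against 16.99 and 16.15), *Cebpb* and *Cd14* overlapped. The macrophage sum was lowest of all in the second array of antagomir-21 with miR-21 exosomes, as many of the lysosomal genes were. The B cell list was also higher in both antagomir-21 arrays with GFP exosomes (13.21 and 13.18) than in both scramble arrays (12.02 and 12.65). So were the lists of mast cells (11.13 and 10.96 against 10.66 and 10.86) and glia (11.25 and 11.10 against 10.93 and 10.81). The lists of large peritoneal macrophages (14.02 and 13.97 against 12.88 and 13.49) and T and NK cells (10.13 and 10.04 against 9.97 and 9.80) were higher too. All 3 measured B cell genes were higher in both antagomir-21 arrays there, but no mast cell gene was. The median mast cell gene was lower, at 6.51 against 7.52. Among T and NK cell genes only *Cd2* was higher in both arrays, and the median gene was lower (5.76 against 7.02). For glia 2 of 4 named genes were measured, and only *Fabp7* was higher in both arrays. The lists of dendritic cells (10.17 and 9.59 against 10.95 and 10.29) and sensory neurons (10.26 and 9.30 against 11.18 and 10.30) were lower in both arrays. The mesothelial and epithelial list overlapped. In such bulk RNA, fewer macrophages and less RNA per macrophage cannot be told apart, and the part of cell content in the differences below was not tested. Markers of B cells, mast cells, dendritic cells, T and NK cells, mesothelium, sensory neurons and glia were at 0 in no array either, and their summed levels ran from 8.79 to 13.98 over these lists and arrays.

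The extremes of the lysosomal genes gathered in a few arrays. The array with the lowest value was the second of antagomir-21 with miR-21 exosomes for 13 of 42 genes, the first of scramble with GFP exosomes for 12, and the first of scramble with miR-21 exosomes for 10. For all genes these arrays held 9.58%, 9.28% and 10.3% of the minima. The minima were not counted for genes of like level. The median of the 42 genes, centred by gene, was −0.85, −0.67 and −0.63 in these arrays. Relative to the genes nearest in mean level it was −0.19, −0.50 and 0.06, so the low level was not particular to lysosomal genes in each of them. The highest value was in the first array of antagomir-21 with miR-21 exosomes for 10 of the 42 (10.0% of all genes), so that the highest and the lowest extremes fell in arrays of the same group. The SD of the 6 group means exceeded what the spread within groups alone gives (the SD within groups divided by the square root of 2) in 8 of 42 lysosomal genes (19%) and in 41.2% of all genes. The 8 were *Scarb2*, *Mcoln1* and *Npc1* of the membrane, *Man2b1*, *Manba* and *Neu1* of the lumen, and the pump genes *Atp6v0b* and *Atp6ap1*. *Scarb2*, which carries β-glucocerebrosidase to the lysosome, had the widest margin, with an SD of 0.69 among group means and 0.56 within groups.

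**Figure D1:**
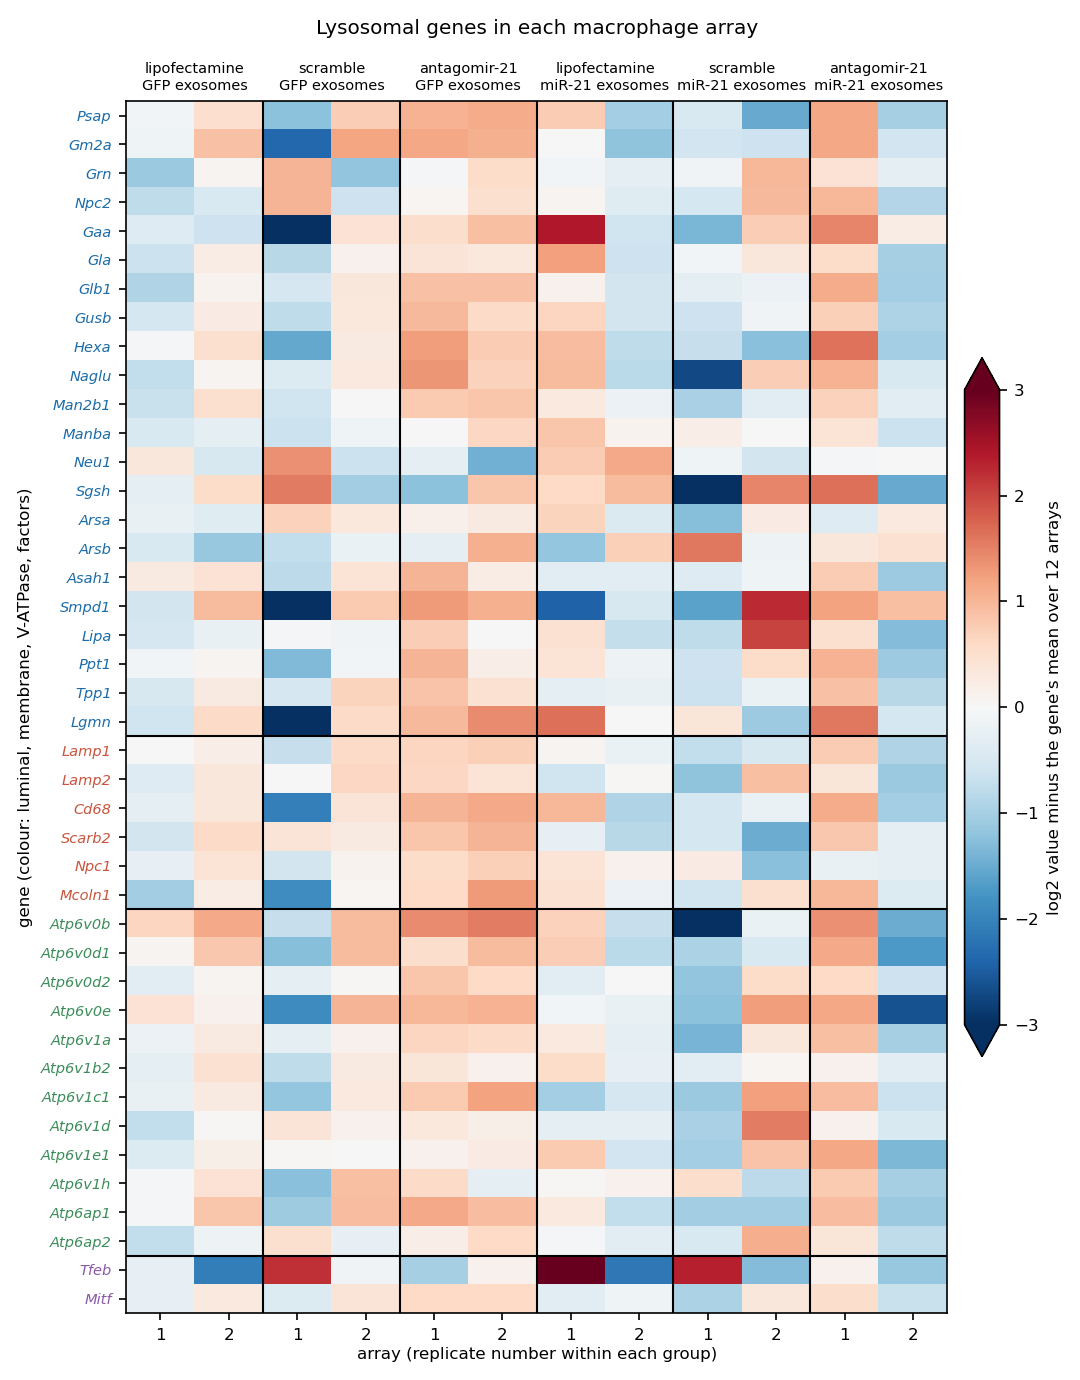
Heat map of the 42 measured lysosomal genes (rows) in the 12 arrays (columns, 2 per group); the colour is the log2 value minus the mean of the gene over 12 arrays, from −3 (blue) to 3 (red). Whole columns share a colour, and the red first array and blue second array of antagomir-21 with miR-21 exosomes belong to the same group.

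The 2 arrays of a group were close in some groups and far apart in others. With antagomir-21 and GFP exosomes the median absolute gap was 0.30, close to the 0.26 of the genes nearest in mean level, and replicate 1 was higher for 20 genes and replicate 2 for 22. With antagomir-21 and miR-21 exosomes the gap was 1.61 against 1.31, and replicate 1 was higher for 39 of 42 genes (52.8% of all genes). With scramble and GFP exosomes it was 1.23 against 0.70, and replicate 2 was higher for 31 of 42 (46.7% of all genes). The 12 pump genes and the 6 membrane genes were all higher in replicate 1 of antagomir-21 with miR-21 exosomes. With lipofectamine and GFP exosomes the gap was 0.66 against 0.43, with 36 of 42 genes higher in replicate 2 (51.0% of all genes). The first array of scramble with GFP exosomes and the second of antagomir-21 with miR-21 exosomes were thus low for most lysosomal genes, and the main results that rest on them are given below with and without them.

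**Figure D2:**
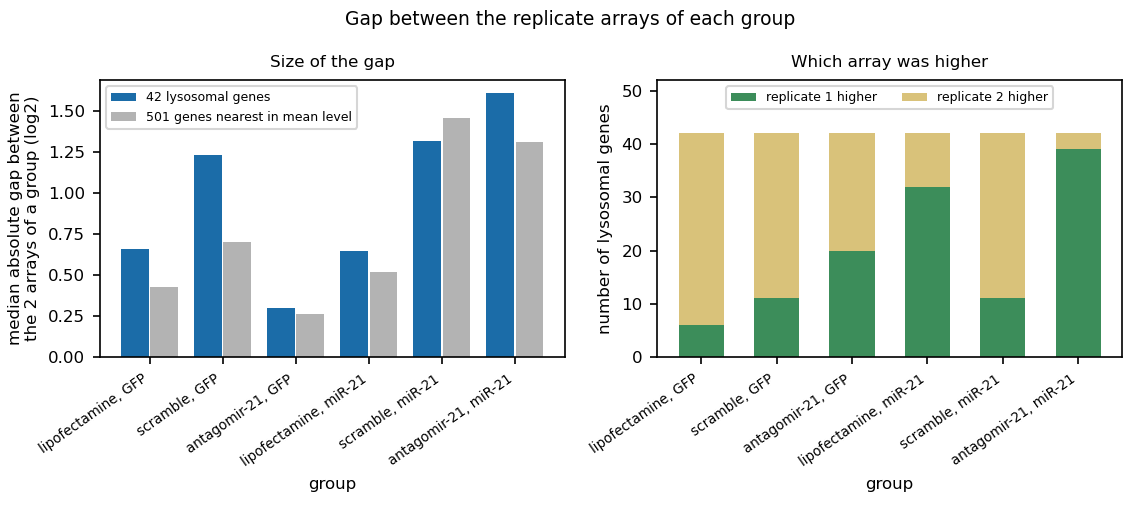
Left, median absolute gap in log2 between the 2 arrays of each group for the 42 lysosomal genes (blue) and the genes nearest to each in mean level (grey); right, number of lysosomal genes higher in replicate 1 (green) or replicate 2 (yellow). The gap was smallest with antagomir-21 and GFP exosomes (0.30) and largest with antagomir-21 and miR-21 exosomes (1.61), where 39 genes were higher in replicate 1.

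Antagomir-21 was compared with scramble first in PMs exposed to GFP exosomes. The study reports that antagomir-21 lowered miR-21 only in part in PMs, and no level of miR-21 is given here. Of the 42 genes, 37 were higher with antagomir-21 (51.2% of all genes were), with a median log2 difference of 0.82 for the lysosomal genes and 0.03 for all genes. By structural class, 19 of 22 luminal genes were higher (median 0.91), all 6 membrane genes (0.79) and 11 of 12 pump genes (0.76). Without replicate 1 of scramble with GFP exosomes these medians were 0.46, 0.59 and 0.15, and the median over all 42 genes was 0.44. No gene passed the test: 0 of 42 had an unadjusted p under 0.05 from limma (5.38% of all genes), and 0 had an adjusted p under 0.05 (0.0% of all genes). Both antagomir-21 arrays were above both scramble arrays in 25 genes (19.1% of all genes) and below in 1 (16.7%). The gene below was *Arsa*, the sulfatase of sulfatide breakdown, at −0.29. Relative to the genes nearest in mean level the median difference was 0.49, with 32 of 42 genes above 0. The class counts and medians above are on deposited values. On the relative scale the class medians, averaged over the 2 arrays, were 0.34 with antagomir-21 and −0.27 with scramble for luminal genes. They were 0.39 and −0.22 for membrane genes and 0.21 and −0.25 for pump genes. After quantile normalization 33 genes were higher and 18 stood wholly above scramble (17.6% of all genes), and after loess 31 and 18 (17.7%).

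The scramble arrays differed in their weight on this result. Without replicate 1 of scramble with GFP exosomes, 33 of 42 genes were higher with antagomir-21 and none had an unadjusted p under 0.05 (3.73% of all genes). Without replicate 2 the count was 34, the median 1.27, and 6 genes had an unadjusted p under 0.05 where 8.77% of all genes did (*Lgmn*, *Gaa*, *Gm2a*, *Smpd1*, *Cd68* and *Mcoln1*, adjusted p from 0.41 to 0.541 with limma). The 95% interval of the difference included 0 for all 42 genes, with a median half-width of 2.23, so that most differences of this size or less were not detectable with 2 arrays per group.

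Among the luminal proteins the largest difference was in *Lgmn*, which encodes legumain, an asparaginyl endopeptidase that processes cathepsins and antigens. *Lgmn* had log2 values of 9.21 and 10.38 with lipofectamine, 4.83 and 10.37 with scramble, and 10.77 and 11.21 with antagomir-21 under GFP exosomes. Under miR-21 exosomes the values were 11.46 and 9.80, 10.17 and 8.71, and 11.37 and 9.28 in that order. The first scramble array was far below the other 11, and the second scramble array was close to the antagomir-21 arrays. The difference was 3.38 (SE 1.62, 95% interval −0.20 to 6.97, 10.4-fold), with an adjusted p of 0.957 from limma. Without the first scramble array it was 0.61.

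*Smpd1*, encoding the acid sphingomyelinase that releases ceramide, gave the next largest difference. Its values were 6.86 and 8.35 with lipofectamine, 4.08 and 8.19 with scramble, and 8.69 and 8.47 with antagomir-21 under GFP exosomes, then 4.97 and 6.93, 5.80 and 9.64, and 8.61 and 8.30 under miR-21 exosomes. The 4 antagomir-21 arrays lay close together, while scramble and lipofectamine arrays were scattered around and below them. The difference with GFP exosomes was 2.44 (SE 1.56), adjusted p = 1.0 from limma, but the other probe set of *Smpd1* gave −4.93, and the mean of both turned the direction to −1.24. Without the first scramble array the difference was 0.39. *Gaa*, the acid α-glucosidase that breaks down glycogen, differed by 2.36, also with its lowest value (4.78) in the first scramble array, and by 0.28 without that array. Its second probe set gave 0.33. *Gm2a* and *Hexa*, the activator protein and the hexosaminidase subunit that together degrade GM2 ganglioside, differed by 1.70 and 1.64, and by −0.07 and 0.74 without the first scramble array. The *Gm2a* groups overlapped, its highest value (13.98) was in the second scramble array, and the lowest of its 3 probe sets gave −2.29, with only the brightest above 0.

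*Psap* encodes prosaposin, the precursor of the saposins that present sphingolipids to hydrolases. Its values were 15.24 and 15.81 with lipofectamine, 14.08 and 16.05 with scramble, and 16.36 and 16.43 with antagomir-21 under GFP exosomes. Under miR-21 exosomes they were 16.07 and 14.30, 14.87 and 13.80, and 16.48 and 14.32. The antagomir-21 arrays with GFP exosomes did not overlap with the scramble arrays, although the second scramble array was just below them. The means were 16.39 ± 0.05 and 15.06 ± 1.39 (SD, n = 2), and the difference was 1.33 (SE 1.11) with an adjusted p of 1.0 from limma. Without the first scramble array it was 0.35.

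*Neu1*, the lysosomal sialidase, was the luminal gene with the lowest difference. It measured 9.66 and 8.85 with lipofectamine, 10.70 and 8.68 with scramble, and 9.04 and 7.88 with antagomir-21 under GFP exosomes, and 10.09 and 10.47, 9.19 and 8.77, and 9.28 and 9.33 under miR-21 exosomes. The scramble and antagomir-21 arrays overlapped with GFP exosomes, and the first scramble array was the highest of all 12. The difference was −1.23 (SE 0.95), adjusted p = 1.0 from limma, and −0.23 without the first scramble array. *Grn* and *Npc2*, encoding progranulin and a cholesterol carrier, shared this high first scramble array, at 17.69 and 17.05 the top value of each gene. The first scramble array was thus at the top for some lysosomal genes and at the bottom for 12 of them.

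The membrane proteins were all higher with antagomir-21 and GFP exosomes in deposited values, but *Lamp2* was at −0.21 relative to the genes nearest in mean level. *Cd68* encodes macrosialin, a LAMP family glycoprotein used as a macrophage marker. Its values were 12.98 and 13.62 with lipofectamine, 11.21 and 13.66 with scramble, and 14.29 and 14.40 with antagomir-21 under GFP exosomes, then 14.27 and 12.36, 12.74 and 13.08, and 14.39 and 12.26 under miR-21 exosomes. Both antagomir-21 arrays stood above both scramble arrays with GFP exosomes, whereas with miR-21 exosomes they lay on either side of them. The difference with GFP exosomes was 1.91 (SE 1.14, 3.76-fold), adjusted p = 1.0 from limma, and with miR-21 exosomes 0.41 (SE 1.14). Without the first scramble array the difference with GFP exosomes was 0.68.

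*Lamp1*, one of the main proteins of the lysosomal membrane, was among the steadier genes. It measured 13.84 and 14.04 with lipofectamine, 13.15 and 14.42 with scramble, and 14.48 and 14.55 with antagomir-21 under GFP exosomes, and 13.92 and 13.65, 13.10 and 13.37, and 14.61 and 12.94 under miR-21 exosomes. The antagomir-21 arrays with GFP exosomes exceeded both scramble arrays, the nearer by a small margin. The difference was 0.73 (SE 0.90), adjusted p = 1.0 from limma, and 0.10 without the first scramble array.

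*Lamp2*, whose isoforms serve autophagy, was 14.19 and 14.92 with lipofectamine, 14.58 and 15.20 with scramble, and 15.21 and 14.98 with antagomir-21 under GFP exosomes, and 13.99 and 14.62, 13.36 and 15.48, and 14.95 and 13.46 under miR-21 exosomes. Antagomir-21 and scramble arrays overlapped with either exosome. The difference with GFP exosomes was 0.21 (SE 0.99) and turned to −0.18 after quantile normalization and to −0.34 after loess. *Mcoln1*, the calcium channel mucolipin 1, and *Npc1*, the cholesterol exporter, differed by 1.85 and 0.86, with both antagomir-21 arrays above both scramble arrays in each gene, and by 0.88 and 0.53 without the first scramble array.

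In the V-ATPase, *Atp6v0d1* and *Atp6v0d2* encode alternative d subunits that join the V1 and V0 parts, the second of them abundant in osteoclasts and some macrophages. *Atp6v0d1* measured 10.61 and 11.34 with lipofectamine, 9.24 and 11.47 with scramble, and 11.06 and 11.48 with antagomir-21 under GFP exosomes, and 11.25 and 9.71, 9.57 and 10.06, and 11.66 and 8.81 under miR-21 exosomes. *Atp6v0d2* measured 12.42 and 12.81, 12.46 and 12.78, and 13.56 and 13.34, then 12.41 and 12.74, 11.56 and 13.29, and 13.33 and 12.12. For *Atp6v0d2* both antagomir-21 arrays lay above both scramble arrays with GFP exosomes, and for *Atp6v0d1* the groups overlapped. The differences were 0.92 (SE 1.18) for *Atp6v0d1*, which was −0.20 without replicate 1 of scramble with GFP exosomes, and 0.82 (SE 0.91) for *Atp6v0d2*, both with an adjusted p of 1.0 from limma. The other pump genes ranged from −0.02 for *Atp6v1d*, of the central stalk, to 1.46 for *Atp6v0e*, a small membrane subunit that differed by 0.01 without the first scramble array. *Atp6v0d2* differed by 0.66 without it.

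The 2 transcription factors gave differences of opposite sign, and neither had an unadjusted p under 0.05 from limma. *Tfeb* measured 6.03 and 4.20 with lipofectamine, 8.47 and 6.17 with scramble, and 5.27 and 6.40 with antagomir-21 under GFP exosomes, and 9.46 and 4.12, 8.6 and 4.97, and 6.41 and 5.14 under miR-21 exosomes. Its values were scattered over 5.34 log2 units, and the arrays of a group lay up to the whole of that range apart, that of lipofectamine with miR-21 exosomes. The mean of *Tfeb* over 12 arrays was 6.27, below the lowest array median of 7.92, so its signal was dim. *Mitf* measured 12.53 and 13.08, 12.37 and 13.17, and 13.37 and 13.37 with GFP exosomes, and 12.45 and 12.66, 11.83 and 13.12, and 13.32 and 12.11 with miR-21 exosomes. *Mitf* was higher in both antagomir-21 arrays than in both scramble arrays with GFP exosomes. The differences were −1.49 (SE 1.78) for *Tfeb* and 0.60 (SE 0.89) for *Mitf*, both with an adjusted p of 1.0 from limma. Without the first scramble array they were −0.33 and 0.20, and relative to the genes nearest in mean level −0.81 and 0.17.

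**Figure D3:**
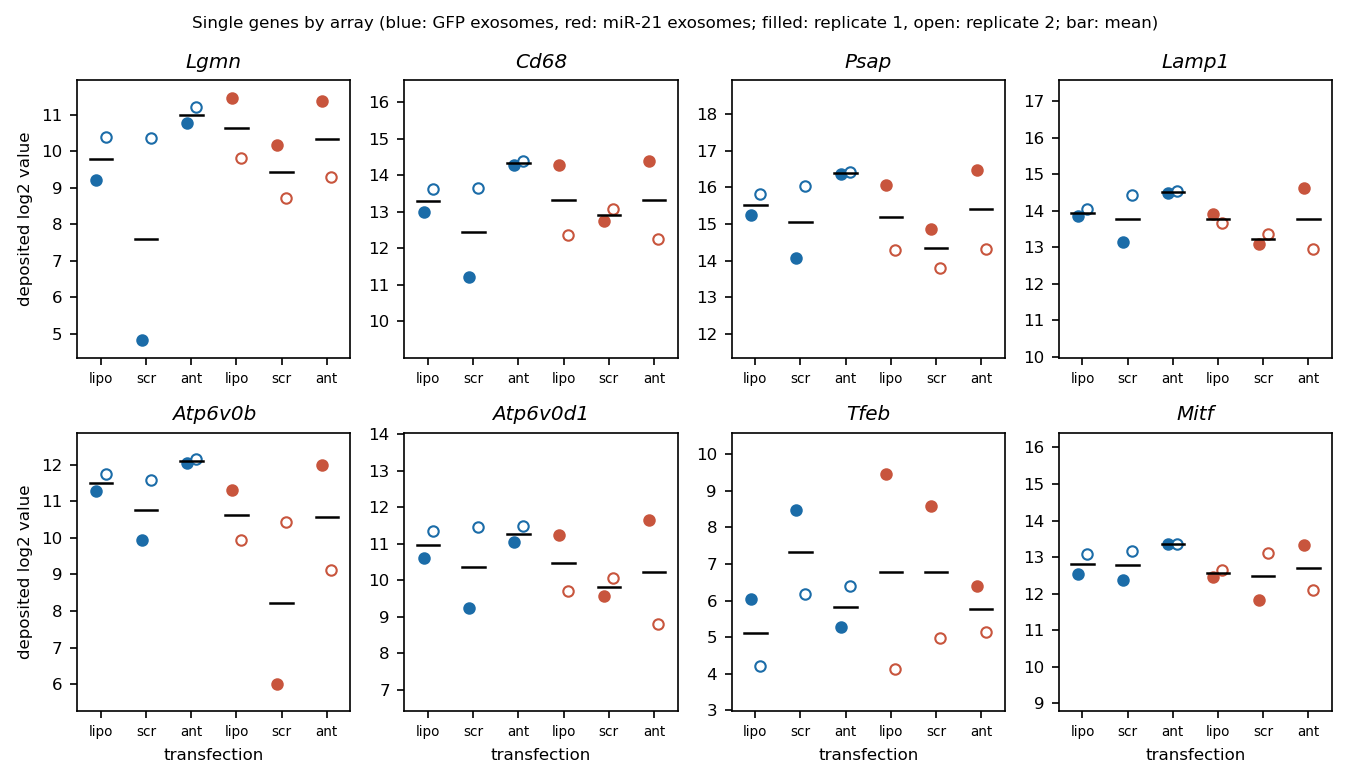
Deposited log2 values of 8 lysosomal genes in each array, by transfection (lipo, lipofectamine; scr, scramble; ant, antagomir-21) with GFP exosomes (blue) and miR-21 exosomes (red); filled points are replicate 1, open points replicate 2 and bars the mean of 2, on axes of equal span. *Lgmn* at 4.83 and *Atp6v0b* at 5.99 were single low arrays in the group with the lowest mean of each gene, and the antagomir-21 arrays with GFP exosomes lie closest together in most panels.

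With miR-21 exosomes the shift was smaller and depended on single arrays. Antagomir-21 was higher than scramble in 30 of 42 genes (47.9% of all genes), with a median difference of 0.28 for the lysosomal genes and −0.05 for all genes. The groups did not overlap in 3 genes, all higher (11.3% of all genes), with 14.9% of all genes lower, and no gene had an unadjusted p under 0.05 (5.3% of all genes) or an adjusted p under 0.05. Without replicate 1 of antagomir-21 with miR-21 exosomes only 10 genes were higher, and without replicate 2 the count was 37. *Scarb2* was among the non-overlapping genes, with values of 9.97 and 9.01 in scramble and 11.31 and 10.24 in antagomir-21, and a difference of 1.29 (SE 0.88). The interaction, that is the effect of antagomir-21 with miR-21 exosomes minus that with GFP exosomes, was below 0 for 35 of 42 genes (52.9% of all genes), median −0.48, with no gene at an unadjusted p under 0.05 (5.36% of all genes). Without replicate 2 of antagomir-21 with miR-21 exosomes 25 of 42 interaction terms were above 0, in place of 7.

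Over both exosomes the differences with GFP and with miR-21 exosomes were averaged. Antagomir-21 was then higher in 34 of 42 genes (49.8% of all genes), and the median difference was 0.56. No gene was separated over the 4 and 4 arrays (0.764% of all genes were, in the higher direction, and 1.2% in the lower), and none had an unadjusted p under 0.05 (5.16% of all genes). The lowest p was that of *Lgmn*, with a difference of 2.14 (SE 1.14) and an adjusted p of 0.992 from limma. Relative to genes of like level the median was 0.36, with 33 of 42 above 0. Without replicate 1 of antagomir-21 with miR-21 exosomes 26 genes were higher, and without its replicate 2 38 were, at medians of 0.14 and 1.04.

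The levels relative to genes of matched brightness placed the antagomir-21 arrays with GFP exosomes above the middle. The median over all 42 genes was 0.29 and 0.30 in these arrays, −0.50 and 0.04 with scramble, and −0.28 and 0.07 with lipofectamine. With miR-21 exosomes it was 0.37 and −0.19 with antagomir-21, 0.06 and −0.26 with scramble, and 0.41 and −0.18 with lipofectamine. Replicate 1 was the higher array in all 3 of these groups, and the 3 groups overlapped. By class, luminal genes were at 0.38 and 0.30 and pump genes at 0.28 and 0.14 with antagomir-21 and GFP exosomes, and membrane genes were lowest in replicate 2 of scramble with miR-21 exosomes, at −1.03.

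**Figure D4:**
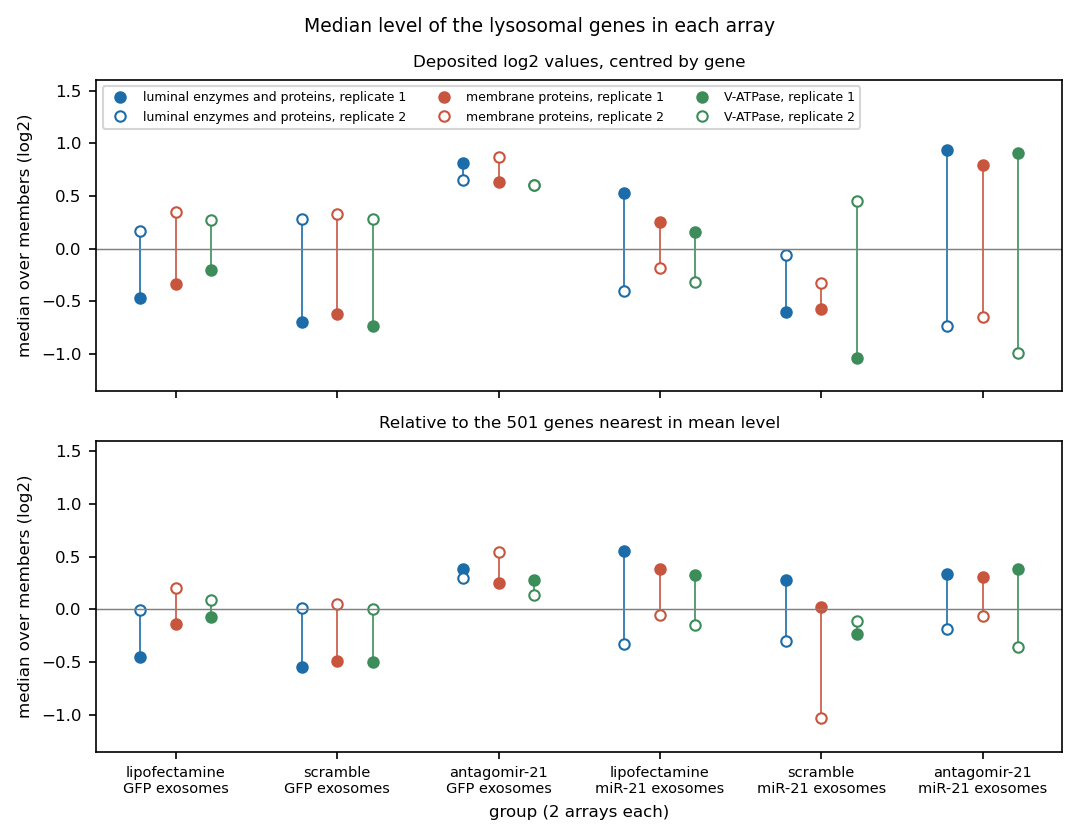
Median over the luminal (blue, 22 genes), membrane (red, 6) and V-ATPase genes (green, 12) in each array, as log2 values centred by gene (top) and relative to the genes nearest in mean level (bottom); filled points are replicate 1, open points replicate 2, and the line joins the 2 arrays of a group. The antagomir-21 arrays with GFP exosomes were the only pair above 0 in all 3 classes, and most other pairs straddled 0.

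Exosomes with miR-21 were compared with GFP exosomes within each transfection. With lipofectamine 24 of 42 genes were higher (49.3% of all genes), with scramble 18 (51.4%), and with antagomir-21 4 (47.3%), at median differences of 0.11, −0.12 and −0.66. No gene had an unadjusted p under 0.05 in any of the 3 (3.84%, 5.7% and 5.68% of all genes). With lipofectamine 4 genes were wholly above (19.6% of all genes) and 3 wholly below (15.8%), and with scramble 2 were above (16.7%) and 2 below (12.2%). With antagomir-21, all 12 pump genes and all 6 membrane genes were lower with miR-21 exosomes (medians −0.69 and −0.81), while 10 genes of the 42 were wholly below GFP exosomes (15% of all genes) and 1, *Neu1*, wholly above (15.9%). Relative to genes of like level the medians were −0.20 for pump genes, 3 of 12 of them above 0, and −0.32 for membrane genes. *Atp6v0e* had the largest of these differences, −1.74 (SE 1.41), adjusted p = 1.0 from limma. This pattern rested on 1 array, since without replicate 2 of antagomir-21 with miR-21 exosomes 27 of 42 genes were higher and the luminal median turned to 0.16. These comparisons share their antagomir-21 and scramble arrays with those above and are not independent of them.

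Over all 3 transfections, 6 against 6 arrays, the differences within each transfection were averaged. Of the 42 genes, 12 were higher and 30 lower with miR-21 exosomes (51.0% of all genes were lower), with a median of −0.27. All 12 pump genes were lower, with a median of −0.35, from −1.66 for *Atp6v0b* to −0.05 for *Atp6ap2* and *Atp6v1e1*. Relative to genes of like level the median over the 42 genes was −0.04, with 21 of them above 0, and 5 of the 12 pump genes were above 0. No gene had an unadjusted p under 0.05 (5.45% of all genes) or stood apart over all arrays (0.192% of all genes in the higher direction and 0.0934% in the lower). Median centring left 6 genes higher and loess 22, so the split followed the scaling.

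*Atp6v0b*, a proteolipid of the V0 ring, had the lowest p in that comparison. Its values were 11.27 and 11.76 with lipofectamine, 9.93 and 11.58 with scramble, and 12.05 and 12.16 with antagomir-21 under GFP exosomes. With miR-21 exosomes they were 11.31 and 9.94, 5.99 and 10.44, and 12 and 9.13. The first scramble array with miR-21 exosomes stood far below the other 11, and the exosome groups overlapped in each transfection but antagomir-21. The difference was −1.66 (SE 0.86, 95% interval −3.56 to 0.24), with an adjusted p of 0.952 from limma, and another of its 3 probe sets gave 0.89. *Atp6ap1*, an accessory protein that helps assemble the pump, differed by −0.91 (SE 0.60), and *Scarb2* by −0.85 (SE 0.51).

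Scramble plus miR-21 exosomes versus antagomir-21 plus GFP exosomes sets added miR-21 against antagomir-21, and held the single unadjusted call. Here 36 of 42 genes were lower (49.0% of all genes), median −0.97, and 21 did not overlap (16.2% of all genes in that direction, 19.5% in the other). *Atp6v0b* was lower by 3.89 on the log2 scale (log2 difference −3.89, SE 1.48, unadjusted p under 0.05, adjusted p = 0.575 from limma), 1 of 42 genes against 2.15% of all genes called lower, or 7.17% in both directions. This call was lost without either of the antagomir-21 arrays or without replicate 1 of scramble with miR-21 exosomes, the array at 5.99. *Scarb2* followed with −1.94 (SE 0.88, adjusted p = 0.699). After quantile normalization 11 genes were higher in place of 6, and after loess 13.

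**Figure D5:**
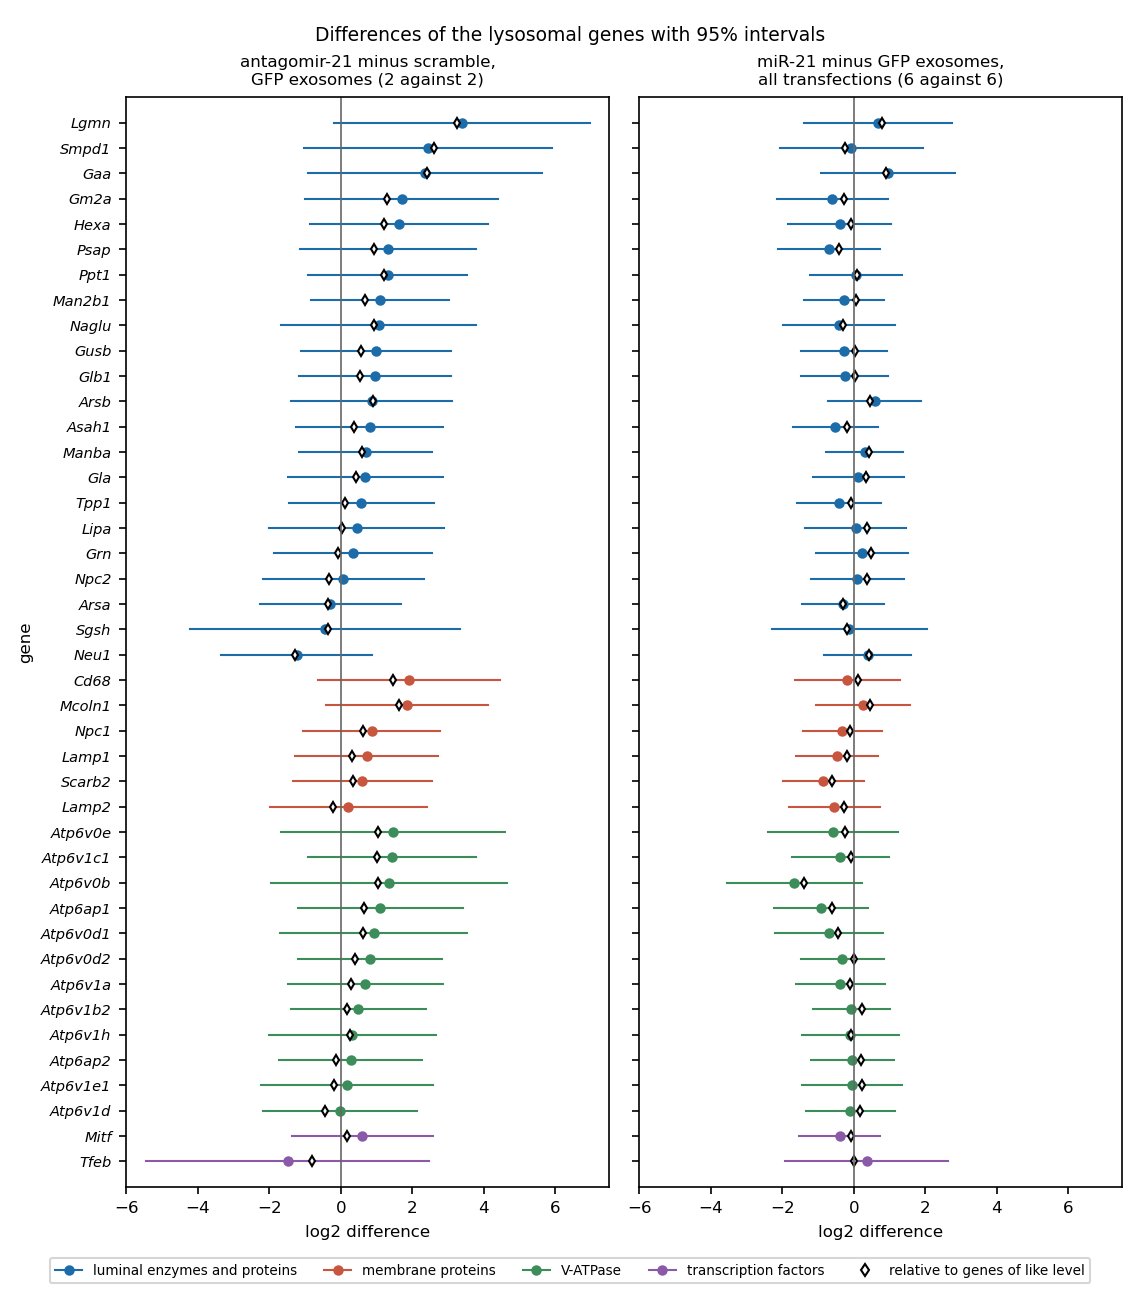
Log2 differences of the 42 genes (circles) with 95% intervals from limma for antagomir-21 minus scramble with GFP exosomes (left, 2 against 2 arrays) and miR-21 minus GFP exosomes over all transfections (right, 6 against 6); open diamonds are the differences relative to genes of like level. Every interval includes 0, while 37 of the 42 circles on the left lie above 0, up to 3.38 for *Lgmn*.

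Scramble against lipofectamine gives the effect of a control oligonucleotide. With GFP exosomes 17 genes were higher and 25 lower (51.1% of all genes were lower), median −0.14, and with miR-21 exosomes 12 were higher and 30 lower (48.9%), median −0.21. No gene had an unadjusted p under 0.05 (2.54% and 5.68% of all genes). With GFP exosomes 4 genes were wholly above lipofectamine and 0 below (16% and 15.8% of all genes), and with miR-21 exosomes 0 were above and 4 below (13.6% and 12.8%). Without replicate 1 of scramble with GFP exosomes 37 of the 42 were higher than with lipofectamine.

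Probe sets of the same gene often disagreed, and the share over all genes with more than 1 probe set was not counted. Of the 28 genes with more than 1 probe set, 14 had all of them on the same side of 0 for antagomir-21 versus scramble under GFP exosomes, and 20 for miR-21 against GFP exosomes in antagomir-21 cells. *Atp6v1b2*, the B subunit of V1 that takes part in ATP binding, ranged from −3.46 to 0.49 over its 4 probe sets in the first of these comparisons. All 4 probe sets of *Lamp2* and all 3 of *Atp6v0b* and *Atp6v1c1*, among other genes, were above 0 there. The lowest of the 3 probe sets of *Mcoln1* gave −0.39.

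Other genes of the pathway were taken from wider lists. For antagomir-21 versus scramble under GFP exosomes, 7 of 14 further luminal enzymes were higher (median −0.02), 11 of 17 further membrane proteins and transporters (0.37), 8 of 11 further pump subunits (0.45), 8 of 10 genes for sorting of lysosomal enzymes (0.70) and 11 of 15 genes for nutrient sensing and control of TFEB (0.45). None of them had an unadjusted p under 0.05 in that comparison. Over both exosomes 3 of these 67 genes had one, where 5.16% of all genes did, so the share was no higher than the background. They are given as values. *Ctns*, the cystine exporter cystinosin, measured 8.73 and 8.76 in scramble and 9.0 and 9.23 in antagomir-21 with GFP exosomes, and 4.96 and 4.96 in scramble and 9.36 and 9.02 in antagomir-21 with miR-21 exosomes. Its antagomir-21 arrays were all above its scramble arrays, and the margin was wide only with miR-21 exosomes. Both values of 4.96 lay below the lower quartile of their arrays (6.37 and 5.66), so they were dim signals. The difference over both exosomes was 2.30 (SE 0.83, adjusted p = 0.82 from limma). For miR-21 against GFP exosomes over all transfections it was −1.69 (SE 0.67, adjusted p = 0.866 from limma), but not every transfection shared this fall. With lipofectamine *Ctns* measured 8.51 and 8.95 with GFP and 5.4 and 9.34 with miR-21 exosomes, and in antagomir-21 cells the exosome groups overlapped. *Plbd2*, a phospholipase-B-like luminal protein, differed by −0.11 with GFP and 3.37 with miR-21 exosomes and by 1.63 over both. Its scramble arrays with miR-21 exosomes were also dim, at 4.95 and 5.66. *Ppt2*, a thioesterase, differed by −2.57 and −1.51 and by −2.04 over both, but it measured 9.32 and 5.41 within antagomir-21 with miR-21 exosomes. The values of *Plbd2* and *Ppt2* over both exosomes had adjusted p-values of 0.955 and 0.933 from limma.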

How the data were processed

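Total RNA of cultured PMs was amplified with NuGEN kits per the labels (the study's methods name a WT Pico kit of another maker) and hybridised to Affymetrix mouse genome arrays, 12 in all, 2 for each of 6 groups taken from the sample labels. The authors deposited log2 expression values for 45037 probe sets. The study's methods name robust multi-array averaging with quantile normalization, but array medians and SDs differ in the deposited values, and the labels and methods used here name no software for them. They were used as given. Arrays carry no read depth, and their number limits the precision.

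Of the probe sets, 34945 carried 1 gene symbol, 932 several and 9160 were not listed in the platform annotation. Symbols were updated through gene IDs for 34741. For each of the 18193 genes its brightest probe set on average over 12 arrays was kept. A model with 6 group means was fitted to all genes in limma 3.58.1 (R 4.3.3), with moderated tests, two-sided, and Benjamini-Hochberg adjustment over all genes. The threshold was 0.05, and 11 comparisons were made, several of which share arrays. The script was tested on simulated data. Levels relative to genes of like brightness are the log2 value minus the mean of the gene, minus the median of the same over the other genes nearest in mean level, with 201 or 1001 of them as alternatives.

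The genes and lists were chosen with earlier results of these data known. All lysosomal genes could be named. Values in every array were given for *Cd68*, *Lamp1*, *Lamp2*, *Psap*, *Tfeb*, *Mitf*, *Atp6v0d1* and *Atp6v0d2*, for any with an unadjusted p under 0.05, and for the 2 largest differences in each direction of antagomir-21 against scramble with GFP exosomes. Of the wider lists, genes with an unadjusted p under 0.05 in a comparison over several transfections or exosomes were named, at most 3 for each list. *Scarb2* was added after its values were seen. Quantile normalization, median centring, loess, the mean of all probe sets, genes above the median mean, the methods' t-test, a replicate block and leaving out each array were tried as alternatives.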

Additional observations from a re-analysis of the deposited data

How the results depend on the processing

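With 2 arrays per group, and arrays that share as much between groups as within them, large differences would be needed for a call, so the absence of calls does not show that lysosomal genes were unaffected. No adjusted p under 0.05 was found for a lysosomal gene with limma in any comparison. The replicate numbers did not pair the arrays (correlation of deviations from −0.192 to 0.167 over 15 pairs of groups), and with a replicate block 94 of 94 results kept their direction and side of the threshold, among them the 37 genes higher with antagomir-21 and GFP exosomes.

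The count of lysosomal genes with an unadjusted p under 0.05 was 0 for antagomir-21 versus scramble under GFP exosomes and became 1 over genes above the median mean (*Lgmn*, 2.96% of genes tested) and 1 with the methods' t-test (*Scarb2*, 5.78%). With the t-test it became 1 for miR-21 against GFP exosomes with lipofectamine (*Asah1*, 5.16%), 1 with antagomir-21 (*Npc1*, 5.34%) and 1 for scramble against lipofectamine with miR-21 exosomes (*Neu1*, 4.46%), and the mean of all probe sets gave 1 with antagomir-21 (*Smpd1*, 5.85%). For scramble plus miR-21 exosomes versus antagomir-21 plus GFP exosomes it went from 1 to 2 with median centring (6.85%), 3 over genes above the median mean (5.56%) and 8 with the t-test (7.4%).

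The count of genes with a difference above 0 went from 24 to 10 with median centring for miR-21 against GFP exosomes with lipofectamine, and from 4 to 10 with loess in antagomir-21 cells. Over all transfections it went from 12 to 6 with median centring and 22 with loess. For scramble plus miR-21 exosomes versus antagomir-21 plus GFP exosomes it went from 6 to 11 with quantile normalization, 3 with median centring and 13 with loess, and for the interaction from 7 to 13, to 18 with loess and to 14 with the mean of all probe sets. Differences that reversed were *Cd68* for miR-21 over all transfections, 0.09 with quantile normalization and 0.16 with loess, *Atp6v0d2* there, 0.02 with loess, *Lamp2* for antagomir-21 with GFP exosomes, −0.18 and −0.34, and over both exosomes, 0.11 with median centring and 0.16 with the mean of all probe sets, and *Smpd1* with GFP exosomes, −1.24 with that mean. The cause was not tested.

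Leaving out each array in turn kept 500 of 568 results, moved 55 and reversed 13. Each of these fits leaves 1 array in a group, so counts of genes past the threshold are not listed here. The count of lysosomal genes above 0 ran from 10 to 37 for antagomir-21 with miR-21 exosomes. For miR-21 against GFP exosomes it ran from 12 to 32 with lipofectamine, 11 to 26 with scramble, 2 to 27 with antagomir-21 and 8 to 21 over all. For scramble against lipofectamine it ran from 8 to 37 with GFP exosomes and 5 to 23 with miR-21 exosomes. It ran from 4 to 14 for scramble plus miR-21 exosomes versus antagomir-21 plus GFP exosomes, and from 3 to 25 for the interaction. For antagomir-21 with GFP exosomes the median of all 42 genes ran from 0.44 to 1.27, of luminal genes from 0.46 to 1.38 and of pump genes from 0.15 to 1.2. With miR-21 exosomes the median ran from −0.33 to 1.08 for luminal, −0.32 to 1.22 for membrane and −0.72 to 1.03 for pump genes. For miR-21 exosomes it ran from −0.89 to 0.55 for pump genes with scramble and, with antagomir-21, from −1.41 to 0.16, −1.46 to −0.04 and −1.57 to −0.05 for the 3 classes. It ran from −0.71 to 0.42 for membrane genes in scramble against lipofectamine with GFP exosomes, from −1.79 to −0.18 for pump genes in scramble plus miR-21 exosomes versus antagomir-21 plus GFP exosomes, and from −1.49 to 0.16 for luminal and −1.09 to −0.05 for membrane genes in the interaction. *Cd68* and *Tfeb* over all transfections ran from −0.58 to 0.23 and −0.53 to 1.25. *Lamp2* ran from −0.10 to 0.51 for antagomir-21 with GFP exosomes and −0.54 to 0.52 over both, and *Atp6v0d1* from −0.20 to 2.03 and −0.04 to 1.38.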
